A study of Mus musculus with 15 samples.

Results

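The nuclear-encoded genes of oxidative phosphorylation were examined in brain mRNA of Kunming mice. They were taken as all genes of the deposited table whose symbols begin with Nduf, Uqcr, Cox4 to Cox8 or Atp5, together with Sdha, Sdhb, Sdhc and Sdhd, and that had at least 1 read in any of the 15 labelled libraries. This gave 97 of 18931 genes, of which 49 belong to complex I, 4 to complex II, 8 to complex III, 19 to complex IV and 17 to complex V. Of these, 96 passed the filter on low counts. Ndufb4c, a copy of the complex I subunit gene Ndufb4, did not, and it had at most 12 reads in a library.

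The study used a mouse model of middle cerebral artery occlusion (MCAO), in which a main artery of the brain is blocked. Its 5 groups had 3 libraries each. They are labelled JA, UA and JU, given to MCAO mice, then vehicle, the MCAO mice without these treatments, and sham. The series title names jasminoidin, ursodeoxycholic acid and their combination, but JA, UA and JU are not spelled out in the labels. The sources used here give no dose, time after occlusion, age, brain region or hemisphere. The sham titles also carry the model's name. Whether the 3 libraries of a group are 3 mice is not stated, so every p-value rests on a spread between samples that may be technical.

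Oxidative phosphorylation takes place in the inner mitochondrial membrane. Complexes I and II pass electrons from NADH and succinate to ubiquinone, complex III passes them on to cytochrome c, complex IV reduces oxygen with them, and complex V, the ATP synthase, uses the proton gradient that complexes I, III and IV build. Neurons depend on this pathway for most of their ATP, and loss of oxygen and glucose during ischaemia stops it. The subunits encoded by mitochondrial DNA were not analysed here.

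Total counts were 18346180 to 20447465 per library, and the 97 genes took 1.03% to 1.47% of them. A floor of 3 counts corresponded to 0.143 to 0.166 CPM (read counts scaled to library size, with TMM factors of 0.975 to 1.03), and it covers counting error only. The 14 pan-neuronal markers summed to 5162 to 13597 CPM across libraries with none at 0, and the 10 markers of skeletal and cardiac muscle to 11.2 to 23.4 CPM. JU replicate 1 stood apart, with the lowest pan-neuronal sum and with 54207 CPM for the 20 markers of reactive microglia and macrophages, which reached at most 28181 CPM in any other library. JA replicate 1 had the highest sum of the JA libraries, which ran from 2439 to 10375 CPM.

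Transcript levels per length differed widely between and within complexes. As FPKM (fragments per kilobase of transcript, scaled to library depth) averaged over all 15 libraries, complex V had the highest median at 205, followed by complex IV at 150 (386 for its 11 common subunits and 2.87 for its 8 isoforms and paralogues), complex III at 147, complex II at 115 and complex I at 81.4. The highest member was Cox4i1, the common isoform of a large regulatory subunit of complex IV, at 805 FPKM, followed by Atp5b, the catalytic beta subunit of the ATP synthase, at 663 FPKM. The highest members of the remaining complexes were Uqcrh, the hinge protein of complex III, at 364 FPKM, Ndufb9, an accessory subunit of complex I, at 281 FPKM, and Sdha, the flavoprotein of succinate dehydrogenase, at 157 FPKM. Genes of complex I assembly factors, which help to build the complex and are not part of it, were far lower, with a median of 12.9 FPKM over 8 genes. The 4 copies or pseudogenes of complex I had a median of 4.27 FPKM. Both classes are part of the complex I median above. Its 7 core and 30 accessory subunits had medians of 81.4 and 100 FPKM.

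Vehicle and sham brains were compared first, to describe these genes after occlusion. Of the 96 genes tested, 13 were lower in vehicle brains and 0 were higher (edgeR quasi-likelihood test, Benjamini-Hochberg adjusted p below 0.05 over all 15125 genes tested). Over all genes, 4.24% were lower and 0.787% higher by the same rule. The changes were small and mostly in 1 direction: 82 log2 fold changes were negative and 14 positive, with a median of -0.21, against 0.00 over all genes. In 63 of the 96 genes all vehicle libraries lay below all sham libraries, a pattern shown by 24.7% of all genes, and in 1 gene all lay above, against 24.5% of all genes. In bulk tissue, fewer cells of a type and less RNA per cell cannot be told apart.

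**Figure D1:**
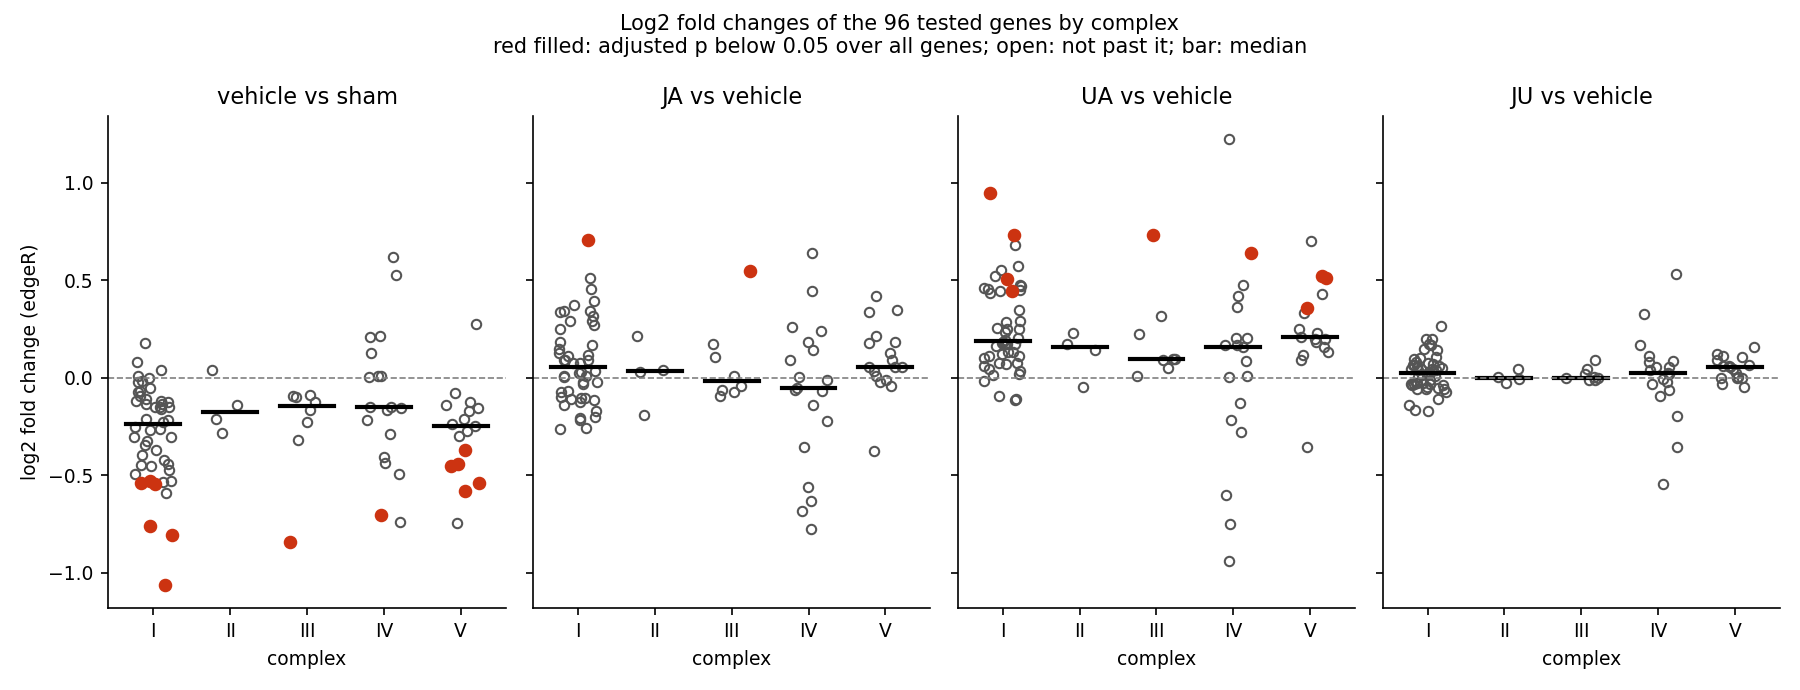
Log2 fold changes (edgeR) of the 96 tested genes, grouped by complex, in 4 comparisons. Each point is a gene, red points passed an adjusted p of 0.05 over all genes, and bars are medians. In vehicle vs sham the red points all lie below 0, in UA vs vehicle all lie above it, and JU vs vehicle has none.

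The largest change among them was in Ndufb1, a small accessory subunit of complex I encoded at chromosome 12 (101968096 to 101975738, GRCm38, RefSeq). Its level was 32.7, 36.4 and 38.2 CPM in JA brains, 46.3, 43.2 and 37.5 CPM in UA brains, 21.5, 28.1 and 24.3 CPM in JU brains, 23.4, 20.8 and 21.7 CPM in vehicle brains and 39.0, 45.7 and 53.0 CPM in sham brains. All vehicle libraries lay below all JA, UA and sham libraries, while the JU libraries overlapped with vehicle. The log2 fold change of vehicle over sham was -1.06 ± 0.13 (SE, adjusted p = 0.00581, edgeR), a level of 0.478 times that of sham (95% interval 0.391 to 0.585).

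Complex I held 6 of the 13 lower genes, and 44 of its 48 tested members had negative values (median -0.24). All 7 core subunit genes were negative, and 2 passed. Ndufs1 (chromosome 1, 63143596 to 63176833, GRCm38, GENCODE as for the genes that follow), which carries iron-sulphur clusters of the electron entry arm, had 153, 182 and 190 CPM in JA, 184, 176 and 184 CPM in UA, 113, 140 and 142 CPM in JU, 137, 126 and 137 CPM in vehicle and 200.03, 196 and 181 CPM in sham brains. Vehicle and sham libraries were well apart, and JU replicates 2 and 3 lay just above the vehicle libraries. The fold change was -0.53 ± 0.10 (adjusted p = 0.0163). Ndufv2, the other cluster-bearing subunit of that arm called here, fell by 0.54 ± 0.12 on the log2 scale (adjusted p = 0.0254).

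The remaining complex I genes called were 3 accessory subunits and 1 assembly factor. Ndufs4, a subunit whose loss causes a Leigh-like encephalopathy in mice, averaged 53.1 ± 2.96 CPM in vehicle and 77.4 ± 7.53 CPM in sham brains (SD, n = 3 each; log2 fold change -0.54, adjusted p = 0.0367). Ndufc1, another small accessory subunit, averaged 24.02 ± 0.815 CPM in vehicle and 40.6 ± 5.97 CPM in sham brains (-0.76, adjusted p = 0.0465). Ndufaf4, an assembly factor, averaged 17.7 ± 2.17 CPM in vehicle and 31.1 ± 3.17 CPM in sham brains (-0.81, adjusted p = 0.0159). The 8 assembly factor genes had a median of -0.46, the lowest of the gene classes of complex I, and 7 of them were below sham in every vehicle library. Ndufaf8 was the exception, at 0.01. Among the 3 tested copies and pseudogenes, whose reads may come from their parent genes, Ndufab1-ps was at -0.45 and Ndufs6b at 0.18, and none passed.

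Complex II had no gene past the threshold, although its catalytic and anchor subunits stood differently. Sdha (chromosome 13, 74322254 to 74350280) had 435, 475 and 499.9 CPM in JA, 472, 475 and 477 CPM in UA, 355, 435 and 429 CPM in JU, 417, 389.98 and 407 CPM in vehicle and 502, 504 and 474 CPM in sham brains. Its vehicle libraries lay below all sham libraries, with a log2 fold change of -0.29 ± 0.09 (adjusted p = 0.088). Sdhb, the iron-sulphur subunit, was at -0.21 ± 0.08 (adjusted p = 0.122), again with no overlap. The membrane anchors were at -0.14 ± 0.07 for Sdhd (adjusted p = 0.184) and 0.04 ± 0.07 for Sdhc (adjusted p = 0.733), which was at -0.05 with the GC trend removed.

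All 8 genes of complex III lay lower in every vehicle library than in every sham library, and 1 passed. Uqcrb (chromosome 13, 66900617 to 66905378), which holds a ubiquinone-binding part of the complex, had 70.7, 70.0 and 89.7 CPM in JA, 99.2, 83.1 and 79.0 CPM in UA, 50.3, 62.1 and 55.3 CPM in JU, 51.6, 53.5 and 52.5 CPM in vehicle and 86.3, 100.4 and 95.8 CPM in sham brains. Vehicle values were tightly grouped and lay below every JA, UA and sham library. The log2 fold change was -0.84 ± 0.12 (adjusted p = 0.00796). Of the core subunits, Uqcrc2 was at -0.32 ± 0.09 (adjusted p = 0.0637) and Uqcrc1 at -0.10 ± 0.09 (adjusted p = 0.456), and the abundant Uqcrh was at -0.17 ± 0.11 (adjusted p = 0.319).

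Complex IV had 11 common subunits and 8 isoforms or paralogues, and no test compared these classes. Among the common subunits, 9 values were negative with a median of -0.21, and Cox5a passed. Cox5a (chromosome 9, 57521274 to 57532426), a nuclear subunit close to the catalytic core, had 107, 125 and 125 CPM in JA, 148, 129 and 131 CPM in UA, 78.3, 109.9 and 106 CPM in JU, 88.3, 78.8 and 95.1 CPM in vehicle and 143, 137 and 147 CPM in sham brains. No vehicle library reached the level of any JA, UA or sham library, and 1 JU library lay below them and 2 above. Its log2 fold change was -0.70 ± 0.12 (adjusted p = 0.0128), and 41.7% of its exon bases overlap a transcript on the other strand, whose reads may have been counted with it. Ndufa4, now assigned to complex IV, was at -0.49 ± 0.15 (adjusted p = 0.0769). Cox4i1, the most abundant member, stayed at 624 ± 15.3 CPM in vehicle and 624 ± 41.6 CPM in sham brains (log2 fold change 0.00 ± 0.11, adjusted p = 0.993).

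The 8 isoforms and paralogues, most with few reads, had a median of 0.17, with 6 positive values and none past the threshold. Ndufa4l2, a paralogue of Ndufa4 that hypoxia induces in several cell types, had 2.06, 2.83 and 1.38 CPM in JA, 1.77, 1.68 and 2.15 CPM in UA, 4.88, 1.75 and 1.77 CPM in JU, 1.33, 5.74 and 3.68 CPM in vehicle and 2.47, 2.76 and 1.77 CPM in sham brains. Its vehicle libraries reached below and above all sham libraries (0.62 ± 0.51, adjusted p = 0.431). Cox6b2, known as a testis isoform, was likewise spread, at 2.56, 5.15 and 4.20 CPM in vehicle and 3.05, 2.71 and 2.50 CPM in sham brains (0.53 ± 0.37, adjusted p = 0.351). The lung isoform Cox4i2 was at 0.21 and the heart and muscle isoforms Cox7a1, Cox6a2 and Cox8b at 0.22, -0.15 and 0.01. Cox7a2l, which takes part in joining complexes III and IV into supercomplexes, was at 0.13, and Cox7b2 at -0.74 ± 0.76, from 0.205, 0.343 and 0.287 CPM in vehicle and 0.316, 0.521 and 0.574 CPM in sham brains, levels at which counts are few.

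Per length, the restricted isoforms were minor in this tissue in every group. Cox4i2 stood at 0.168% to 0.301% of the FPKM of Cox4i1 over the 15 libraries, Cox8b at 0.0481% to 0.579% of Cox8a and Ndufa4l2 at 0.26% to 1.56% of Ndufa4. Cox6a2, Cox6b2 and Cox7a1 reached at most 1.46%, 2.48% and 3.16% of Cox6a1, Cox6b1 and Cox7a2. Cox7a2l was the exception, at 44.7% to 82.4% of Cox7a2, with the highest shares in JU replicate 1 and vehicle replicate 2.

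Complex V held 5 of the lower genes, and 16 of its 17 members were negative (median -0.25). They came from the rotor, the stalk and the membrane part. Atp5pb (chromosome 3, 105942698 to 105960099), the b subunit of the peripheral stalk, had 249.1, 269 and 303 CPM in JA, 336, 304 and 294 CPM in UA, 198, 240 and 238 CPM in JU, 222, 206 and 222 CPM in vehicle and 302, 308 and 336 CPM in sham brains. The vehicle libraries lay below all JA, UA and sham libraries (-0.54 ± 0.10 against sham, adjusted p = 0.016). The coupling factor Atp5j of the same stalk fell by 0.58 ± 0.11 on the log2 scale (adjusted p = 0.017), the rotor subunit Atp5c1 by 0.37 ± 0.09 (adjusted p = 0.0305) and the small membrane subunit Atp5mpl by 0.45 ± 0.11 (adjusted p = 0.0376). Atp5md, another small membrane subunit, was at -0.74 ± 0.20 (adjusted p = 0.0517), and the catalytic Atp5b at -0.25 ± 0.12 (adjusted p = 0.192). For Atp5pb and Atp5j, 21% and 16.3% of exon bases overlap genes on the other strand.

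**Figure D2:**
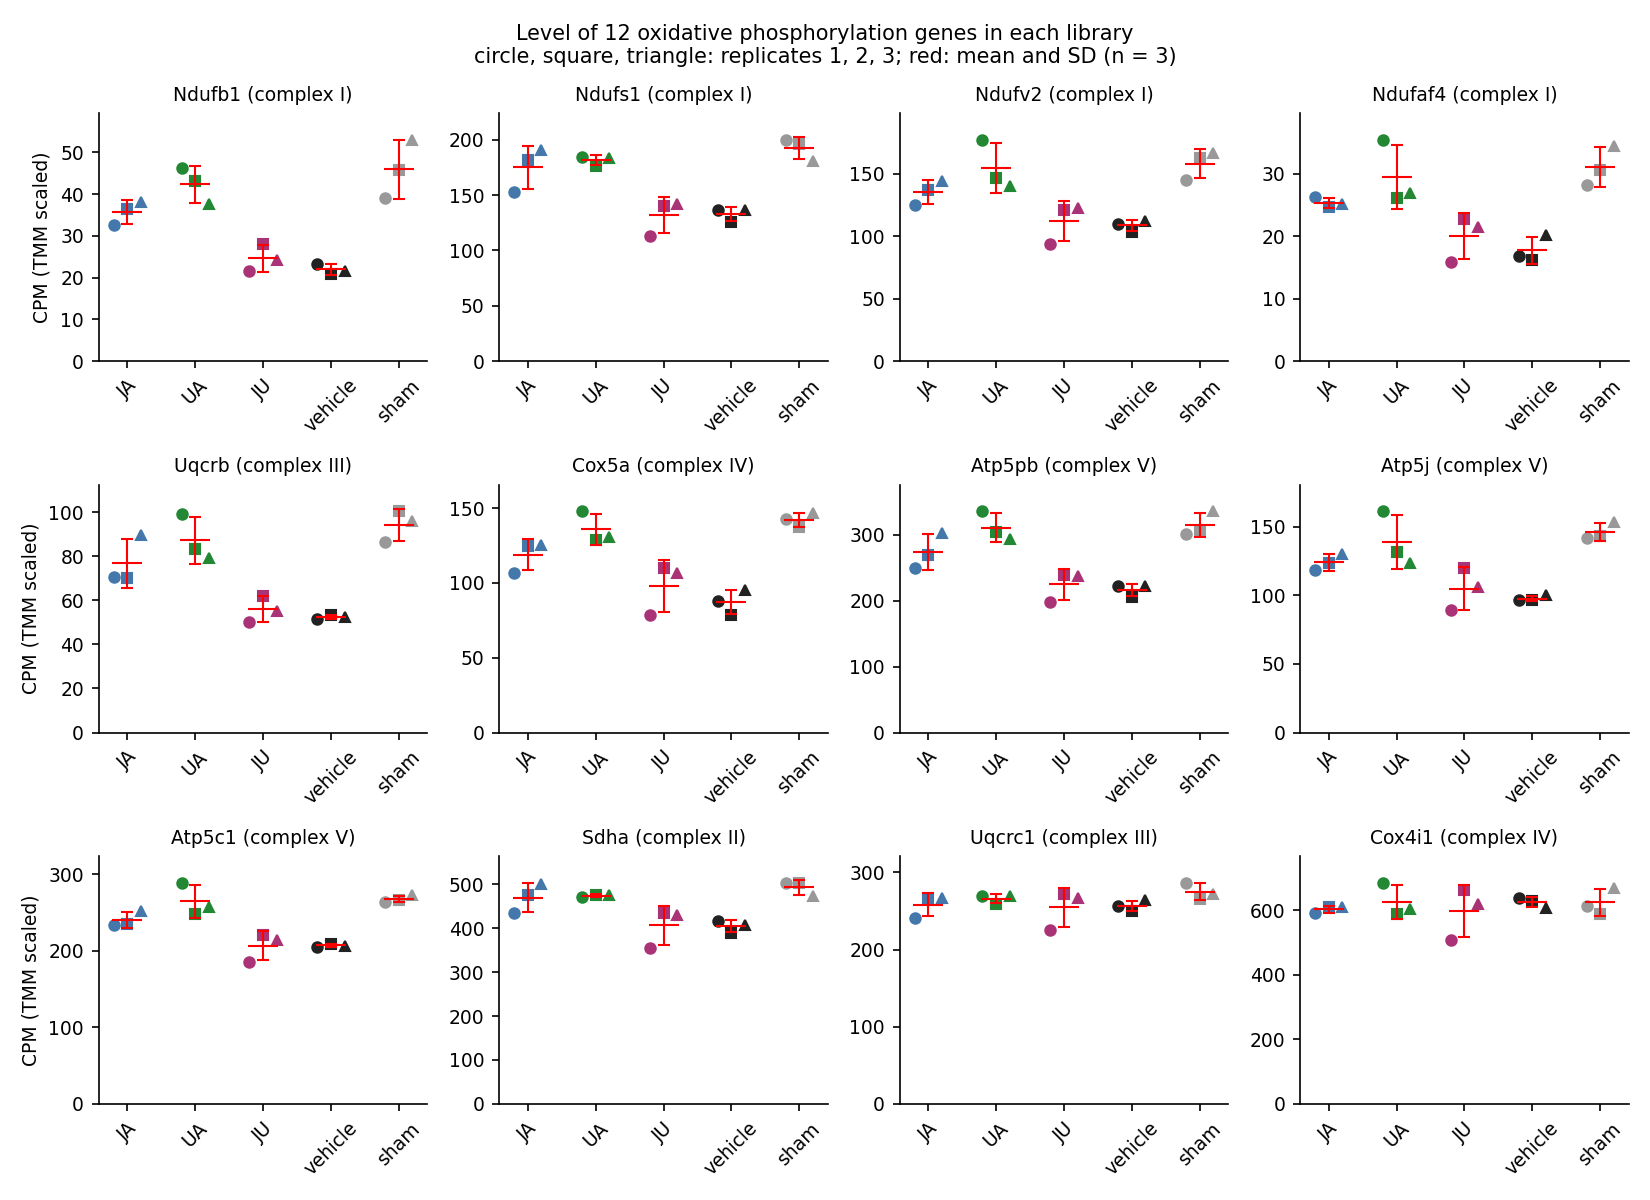
Level (CPM, TMM scaled, linear axes from 0) of 12 genes in each library of the 5 groups, with the mean and SD in red. For the first 9 genes, which were called in vehicle vs sham and in UA vs vehicle, vehicle libraries lie below all UA and sham libraries, while Cox4i1 and Uqcrc1 differ little between groups.

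The c ring of the ATP synthase is encoded by 3 genes, Atp5g1, Atp5g2 and Atp5g3, that make the same mature protein from different precursors, and their transcripts stood apart. Atp5g3 fell by 0.44 ± 0.10 on the log2 scale (adjusted p = 0.0276), Atp5g1 was at -0.24, and Atp5g2 was at 0.28 ± 0.12 (adjusted p = 0.143) and was the 1 gene of the 96 with every vehicle library above every sham library. As a share of Atp5g3 FPKM, Atp5g2 stood at 78.0%, 71.1% and 64.2% in JA, 64.3%, 68.4% and 61.7% in UA, 135%, 78.2% and 80.2% in JU, 91.2%, 120.9% and 101% in vehicle and 62.1%, 63.7% and 64.2% in sham brains. All vehicle libraries lay above all JA, UA and sham libraries, and JU replicate 1 lay above all others. Against vehicle, Atp5g2 was at -0.37 ± 0.12 in JA (adjusted p = 0.126), -0.35 ± 0.12 in UA (adjusted p = 0.114) and -0.05 ± 0.12 in JU brains (adjusted p = 1). These genes were singled out after their values were seen, the ratio was not tested, and Atp5g2 has the higher transcript GC content (56.7%, against 50.5% for Atp5g3).

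**Figure D3:**
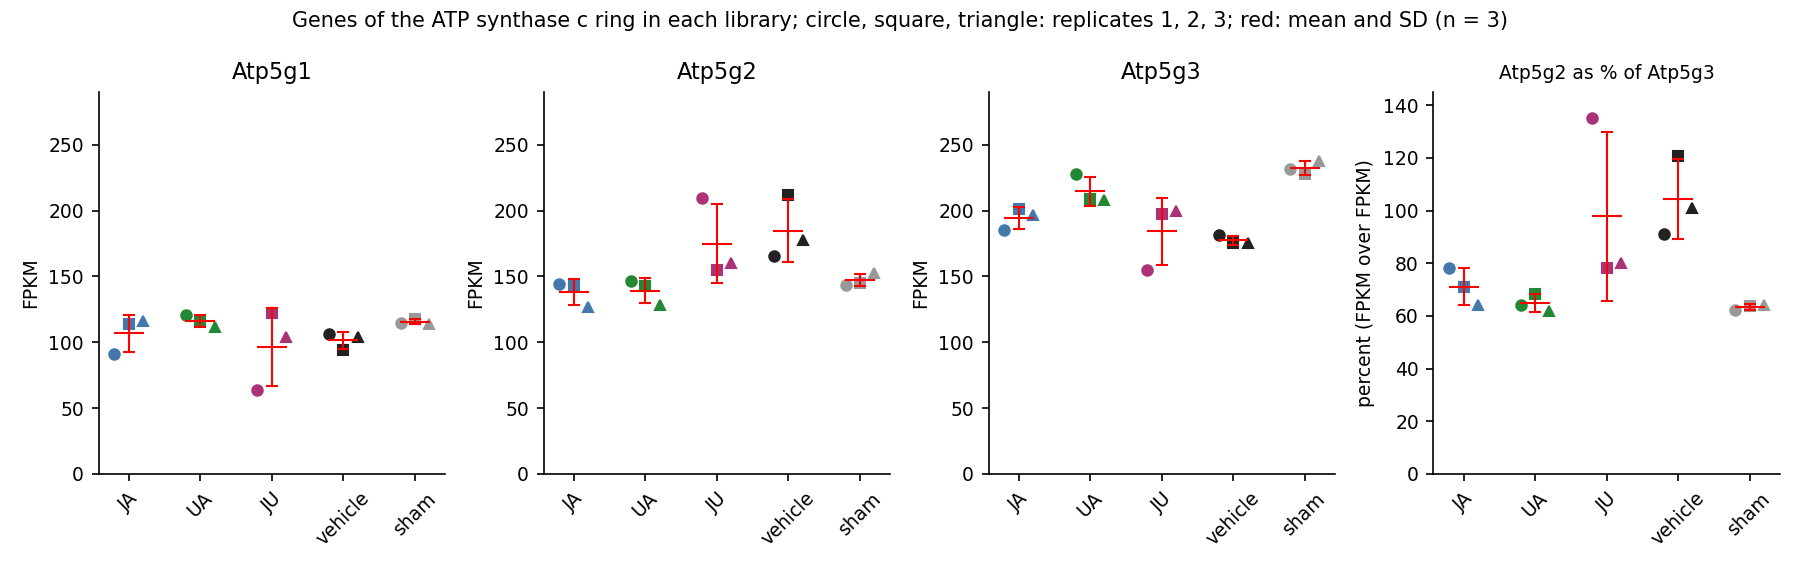
FPKM of the 3 c ring genes in each library and, at the right, Atp5g2 as a percentage of Atp5g3, with mean and SD in red. The vehicle libraries lie at 91.2% to 120.9% and the sham libraries at 62.1% to 64.2%.

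The call count depended on which libraries shared the fit. Without JU replicate 1, 39 genes were lower including all 13, beside 16.9% of all genes called lower, and 1, Atp5g2, was higher, beside 17% of all genes called higher. Leaving out vehicle replicate 1, 2 or 3 left 5, 2 or 7 genes called, and leaving out sham replicate 1, 2 or 3 left 8, 3 or 0, the last with 27 genes at an unadjusted p below 0.05. With all 15 libraries, 37 of the 96 genes were below that unadjusted p in edgeR, beside 4431 of all 15125 genes. Unless stated, such unadjusted counts here and below have no share over all genes beside them, and they describe the members only. The median stayed between -0.25 and -0.19 in these 6 fits. DESeq2 called 26 genes and limma voom 12. Here and below, call counts from DESeq2, limma voom or a fit without 1 library carry no share over all genes unless given. They describe the members only.

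Transcript GC content moved with the size of the change. Over the 94 genes with a known GC content, Spearman's rho with the vehicle vs sham log2 fold change was 0.75, and over 15010 genes of the whole table it was 0.34, a description across genes that share the same libraries. Of the 32 genes with the lowest GC content (36.7% to 49.3%), 10 were called and the median was -0.45, against -0.17 for all genes of this range. Of the 31 in the middle (49.4% to 53.8%) 2 were called, with a median of -0.15 against 0.06, and of the 31 highest (53.8% to 61.1%) 0 were called, with a median of -0.08 against 0.14. In each range the median of the oxidative phosphorylation genes lay below that of all genes. Transcript length had a rho of -0.20 and mean FPKM of 0.02.

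With the trend on GC content removed and JU replicate 1 left out of the fit, the decrease was more even. The median was -0.29, 87 of 94 values were negative, and 54 genes were lower and 0 higher, beside 13.1% of all genes called lower. These included all 12 of the called genes that have a GC value, and Ndufb1 has none. Complex I then had 28 lower genes of 46, complex II 2 of 4, complex III 5 of 8, complex IV 6 of 19 and complex V 13 of 17. Cox5a kept a log2 fold change of -0.69 ± 0.09 (adjusted p = 0.00335), Uqcrb was at -0.60 ± 0.09 (adjusted p = 0.00916), Ndufs1 at -0.40 ± 0.08 (adjusted p = 0.0114), and Sdha at -0.26 ± 0.07 (adjusted p = 0.0185). Of the 12, Ndufaf4 (-0.49, adjusted p = 0.0134) and Ndufs4 (-0.32, adjusted p = 0.0283) became over 1.5 times smaller, and Uqcrc2, which had not passed, was at -0.14 (adjusted p = 0.088). Cox4i1 was at -0.17 ± 0.08 (adjusted p = 0.125) and Atp5g2 at 0.10 ± 0.08 (adjusted p = 0.392). With the trend removed and all 15 libraries in the fit, the median was again -0.29 but 0 genes passed in edgeR, 49 having an unadjusted p below 0.05. Whether the trend is technical was not tested.

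**Figure D4:**
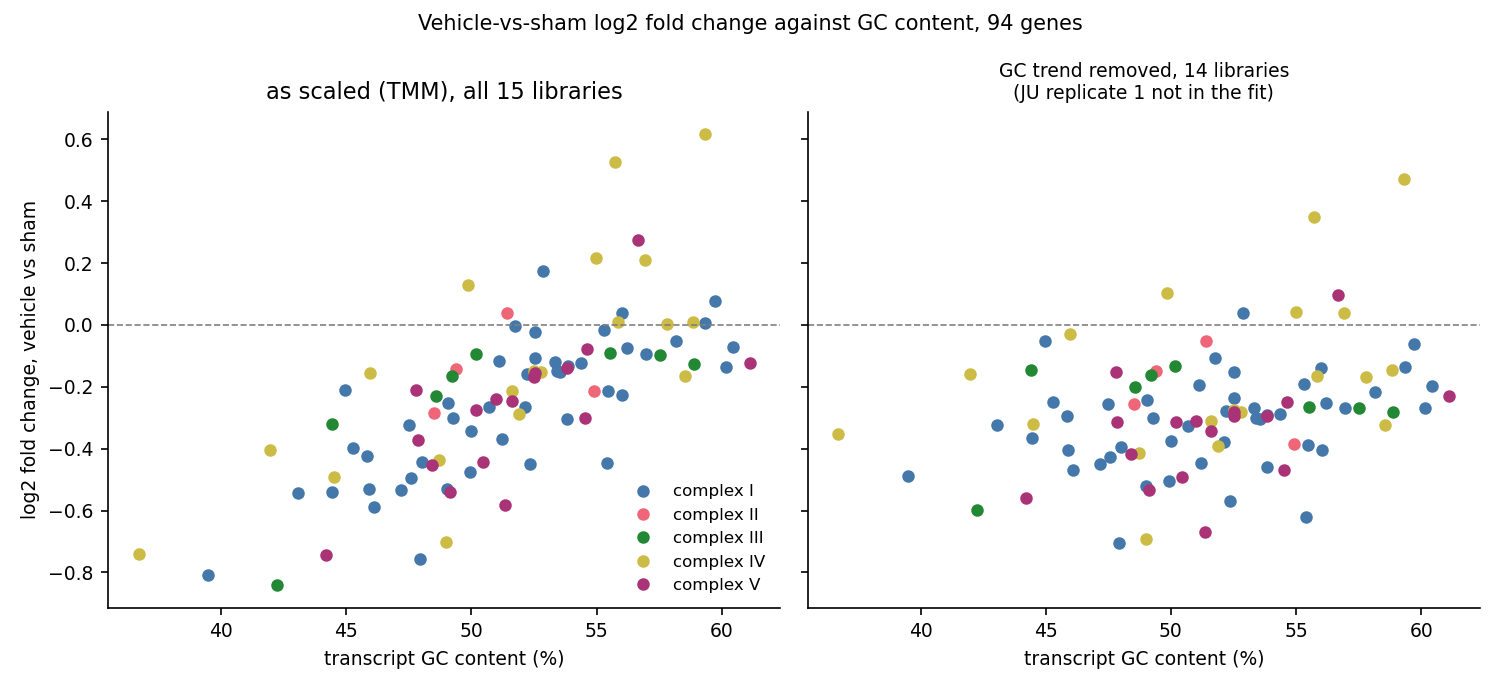
Vehicle vs sham log2 fold change against transcript GC content (%) for 94 genes coloured by complex, as scaled (left) and with the GC trend removed and JU replicate 1 left out of the fit (right). The left cloud rises with GC content (Spearman's rho 0.75), and the right cloud lies mostly below 0 with a weaker slope (rho 0.34).

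The promoters of these genes were searched for motifs of factors known to control them. RefSeq promoter windows (250 bases before to 50 after the start, GRCm38.p6) were found for 78 of the 97 genes. The core CGCANGCGC of nuclear respiratory factor NRF1, on either strand, was present in 33.3% of them and in 7.12% of all 27025 genes with such a window. AAGATGGCG, the site of YY1, was in 10.3% against 1.64%, the ETS site CCGGAAGT, which GABPA binds, in 6.41% against 4.31%, and TCAAGGTCA, the site of the oestrogen-related receptors, in 2.56% against 0.466%. Any of the 4 was in 46.2% against 12.4%. Of the 10 lower genes with a window, 3 held the NRF1 core (Atp5c1, Atp5g3 and Ndufaf4) and 3 the YY1 site (Atp5j, Ndufc1 and Ndufs4). A match is a description of these letters and not a binding site. Adjacent matches on opposite strands are 1 palindrome read on both.

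The windows of Ndufb1, the gene with the largest decrease and with none of the 4 motifs, of Ndufs4, with a YY1 match, and of the c ring pair described above, both with NRF1 matches, are shown 5′ to 3′ on the gene's strand, with matches in capitals. In Atp5g3 the first match, TGACCTTGA, is the receptor site read on the other strand.
Ndufb1 (chr12:101975689-101975988, minus strand): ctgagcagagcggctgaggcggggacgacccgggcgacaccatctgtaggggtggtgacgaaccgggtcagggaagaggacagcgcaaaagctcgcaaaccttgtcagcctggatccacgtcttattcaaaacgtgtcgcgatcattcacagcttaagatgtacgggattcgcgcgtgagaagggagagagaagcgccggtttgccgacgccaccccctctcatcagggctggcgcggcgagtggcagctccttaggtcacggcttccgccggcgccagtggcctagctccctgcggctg
Ndufs4 (chr13:114388045-114388344, minus strand): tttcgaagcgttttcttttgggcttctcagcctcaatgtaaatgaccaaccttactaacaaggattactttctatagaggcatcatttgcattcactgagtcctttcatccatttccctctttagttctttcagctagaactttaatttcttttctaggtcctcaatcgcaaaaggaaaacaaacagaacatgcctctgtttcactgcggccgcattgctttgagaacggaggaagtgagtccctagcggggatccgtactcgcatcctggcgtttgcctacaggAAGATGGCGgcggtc
Atp5g3 (chr2:73911277-73911576, minus strand): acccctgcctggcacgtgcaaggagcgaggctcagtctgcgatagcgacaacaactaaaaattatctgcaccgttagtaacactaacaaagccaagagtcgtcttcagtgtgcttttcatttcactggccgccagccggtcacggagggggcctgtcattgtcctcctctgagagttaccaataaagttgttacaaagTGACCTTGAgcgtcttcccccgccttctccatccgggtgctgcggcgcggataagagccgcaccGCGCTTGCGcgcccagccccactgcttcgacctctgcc
Atp5g2 (chr15:102670998-102671297, minus strand): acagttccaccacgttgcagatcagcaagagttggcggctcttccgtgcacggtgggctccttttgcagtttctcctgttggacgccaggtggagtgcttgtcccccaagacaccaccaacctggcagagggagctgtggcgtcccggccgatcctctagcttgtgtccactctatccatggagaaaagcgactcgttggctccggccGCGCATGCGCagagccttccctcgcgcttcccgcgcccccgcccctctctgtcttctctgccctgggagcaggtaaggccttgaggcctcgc

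UA brains were compared with vehicle brains, which serve as the shared control of all 3 treated groups. Of the 96 genes, 9 were higher in UA brains and 0 lower, beside 3.12% of all genes called higher. The median was 0.18 (all genes -0.01), 84 values were positive, and 48 genes had every UA library above every vehicle library, against 21.7% of all genes. UA replicate 1 lay above all vehicle libraries in 86 genes, and UA replicates 2 and 3 in 61 and 56, against 34.3%, 32.5% and 33.8% of all genes. They lay below in 1, 13 and 18 genes, against 35.3%, 35.1% and 36.3%. Ndufb1 rose by 0.95 ± 0.13 log2 units (adjusted p = 0.0112), to 1.93 times the vehicle level (95% interval 1.58 to 2.36). Uqcrb rose by 0.73 ± 0.12 (adjusted p = 0.0139), Cox5a by 0.64 ± 0.12 (adjusted p = 0.0219) and the assembly factor Ndufaf4 by 0.73 ± 0.15 (adjusted p = 0.028).

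The other genes higher with UA were subunits of complexes I and V. Atp5pb averaged 311 ± 21.8 CPM in UA and 217 ± 9.28 CPM in vehicle brains (0.52, adjusted p = 0.024), and Atp5j 139 ± 19.9 CPM in UA and 97.6 ± 2.04 CPM in vehicle brains (0.51, adjusted p = 0.0337). Ndufv2 rose by 0.51 ± 0.12 (adjusted p = 0.0379), Ndufs1 by 0.45 ± 0.10 (adjusted p = 0.0365) and Atp5c1 by 0.36 ± 0.09 (adjusted p = 0.0435). By complex, 4 of the 9 were in complex I, 1 in complex III, 1 in complex IV and 3 in complex V. Sdha of complex II was at 0.23 ± 0.09 (adjusted p = 0.176). Each of the 9 genes was also called in vehicle vs sham, but both comparisons use the same vehicle libraries, so this is not independent. Without JU replicate 1 in the fit 32 genes were higher, beside 14.8% of all genes, and 1, Atp5g2, was lower, beside 13.4%. With the GC trend removed as well, 40 were higher and 0 lower, beside 6.84%. In that fit Ndufaf4 was at 0.41, Ndufv2 at 0.33 and Uqcrb at 0.48, each over 1.5 times smaller, and all 3 passed. Leaving out vehicle replicate 1, 2 or 3 left 1, 0 or 4, leaving out UA replicate 1, 2 or 3 left 1, 2 or 2, and leaving out sham replicate 2 left 5. Without vehicle replicate 2, 22 genes had an unadjusted p below 0.05.

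JA brains had 2 higher genes and 0 lower, beside 1.49% of all genes called higher, which is near that background. Ndufb1 rose by 0.70 ± 0.13 log2 units (adjusted p = 0.0272) and Uqcrb by 0.55 ± 0.12 (adjusted p = 0.0432). The median over the 96 genes was 0.03 (all genes -0.01), and without JA replicate 1 it was 0.10. JA replicate 1 lay above all vehicle libraries in 26 genes and below them in 45, against 27.9% and 27.7% of all genes. JA replicate 2 lay above in 49 and below in 17, and JA replicate 3 above in 61 and below in 14, where 34.4% to 37.4% of all genes lay on either side. All JA libraries lay above all vehicle libraries in 24 genes, against 17.6% of all genes, and below them in 8, against 15.7%. Those 8 included Ndufb7, an accessory subunit of complex I, at -0.26 ± 0.07 (adjusted p = 0.0856), and Sdhc at -0.19 ± 0.07 (adjusted p = 0.191). JA replicates 2 and 3 alone were both above in 45 genes, against 28.1% of all genes, and both below in 10, against 27.8%. Without JU replicate 1 in the fit 12 genes were higher, beside 11.3% of all genes, and 2, Ndufb7 and Atp5g2, were lower, beside 7.76%. With the GC trend removed as well, 2 genes were higher, beside 0.873% of all genes. These were Ndufs3 and Cox5a, Uqcrb was at 0.33 (adjusted p = 0.0631), and Ndufb1 has no GC value. Leaving out any JA or vehicle library, or sham replicate 2, gave 0 in edgeR, with 10 to 17 genes at an unadjusted p below 0.05. Without UA replicate 2 or 3, JU replicate 3, or sham replicate 1 or 3, 1 gene was higher.

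JU brains had no gene past the threshold against vehicle, and 0% of all genes passed. No member had an unadjusted p below 0.05, against 300 of all 15125 genes, and DESeq2 and limma voom also called 0 members. The median was 0.02 (all genes 0.03), and 1 gene, Ndufc2, had every JU library above every vehicle library, against 2.35% of all genes. The JU libraries differed among themselves. JU replicate 1 lay below all vehicle libraries in 76 of the 96 genes, against 36.9% of all genes, and above them in 8, against 42.6%. JU replicate 2 lay above all vehicle libraries in 76 genes, against 35.3% of all genes, and JU replicate 3 in 60, against 24.5%. They lay below all vehicle libraries in 5 and 7 genes, against 33.2% and 31.1% of all genes. Both were above in 54 genes, against 18.3% of all genes, and both below in 1, against 21%. Without replicate 1 the median was 0.13 and 0 members were called by edgeR, with 18 at an unadjusted p below 0.05.

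In JU replicates 2 and 3, Ndufb1 was at 28.1 and 24.3 CPM and Uqcrb at 62.1 and 55.3 CPM, above the vehicle libraries and below every JA, UA and sham library. Ndufs1, Ndufv2, Ndufaf4, Atp5pb and Atp5c1 stood in the same place in these libraries. Cox5a, Atp5j, Ndufs4, Ndufc1, Atp5g3 and Atp5mpl did not, each with JU replicate 2 above JA replicate 1. All these genes had been called lower in vehicle than in sham brains, so a place above vehicle partly follows from that choice. The share of all genes in this place was not computed. Against UA, 84 of the 96 genes were negative in JU (median -0.16), 27 had every JU library below every UA library, against 13.9% of all genes, and 27 had an unadjusted p below 0.05. Ndufb1 and Uqcrb passed as lower, beside 0.985% of all genes called lower, at -0.78 ± 0.13 (adjusted p = 0.0436) and -0.64 ± 0.12 (adjusted p = 0.0446), while DESeq2 called 13 members. Against JA, Ndufb1 and Uqcrb were at -0.54 ± 0.13 (adjusted p = 0.105) and -0.46 ± 0.12 (adjusted p = 0.123). Without JU replicate 1 the median was -0.05 and 1 member was lower in JU than in UA, and without JU replicate 2 there were 22 lower and 1 higher. Leaving out any other library gave 0, with 20 to 29 genes at an unadjusted p below 0.05 in edgeR. The counts from DESeq2 and from fits with a library left out have no share over all genes beside them, and they describe the members only. No member passed in JU vs JA, where 0% of all genes passed, 17 members had an unadjusted p below 0.05 in edgeR, DESeq2 called 5 and limma voom 0. The median of JU over JA was -0.03 with all libraries, 0.09 without JU replicate 1 and 0.04 without JU replicate 1 and JA replicate 1. No member passed in JA vs UA, where 0% of all genes passed, 5 members had an unadjusted p below 0.05 in edgeR, and DESeq2 and limma voom called 0.

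The outermost fold changes of the treated groups came mostly from isoforms with few reads, and none of these passed. Ndufa4l2 had the lowest value against vehicle in JA (-0.78 ± 0.51) and in UA brains (-0.94 ± 0.52), and Cox7b2 the highest in UA (1.22 ± 0.75) and in JU brains (0.53 ± 0.77). Cox8b was lowest in JU against vehicle (-0.54 ± 0.71) and highest in JA against UA (0.39 ± 0.73), where Ndufa12, an accessory subunit of complex I, was lowest (-0.60 ± 0.27). Cox6b2 was the highest member in JU against JA (0.96 ± 0.37) and against UA (0.93 ± 0.37), with 7.71, 2.57 and 4.68 CPM in JU brains, and its top value was in JU replicate 1.

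Levels of whole complexes were compared across libraries as the mean log2 CPM of their tested genes minus the sham mean. Over all 96 genes this was -0.31, -0.16 and -0.12 in JA, 0.11, -0.09 and -0.14 in UA, -0.46, -0.11 and -0.13 in JU, -0.25, -0.28 and -0.21 in vehicle and -0.03, -0.01 and 0.04 in sham brains. Every vehicle library lay below every UA and sham library, and the lowest values of all were in JU replicate 1 and JA replicate 1. Complex I, II, III and V each separated vehicle from sham in this way. Complex IV did not, with -0.30, -0.10 and -0.01 in vehicle and 0.01, -0.02 and 0.02 in sham brains. Its common subunits alone did, at -0.22, -0.35 and -0.25 in vehicle and -0.01, -0.03 and 0.04 in sham brains.

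Markers of cell types also differed between the libraries, and no association with these values was computed. The pan-neuronal markers were at -0.34, -0.09 and 0.03 in JA, 0.00, -0.08 and -0.06 in UA, -1.29, 0.03 and -0.14 in JU, and -0.25, -0.69 and -0.22 in vehicle brains on the same scale. All 14 were negative in vehicle vs sham (median -0.36), with 0 called. In 12 of the 14 all vehicle libraries lay below all sham libraries, against 24.7% of all genes. The sums of the 14 were 7981 to 10917 CPM in vehicle and 12823 to 13085 CPM in sham brains. The 20 markers of reactive microglia and macrophages were at 3.36, 0.64 and 0.16 in JA, 0.70, 2.43 and 1.118 in UA, 5.89, 0.51 and 2.30 in JU, and 3.61, 5.07 and 3.65 in vehicle brains. All 20 were positive in vehicle vs sham, with 1 called higher. In the same comparison all 12 markers of homeostatic microglia (6 called higher) and all 12 of reactive astrocytes (0 called, 6 with an unadjusted p below 0.05 in edgeR) were positive. Over all genes 0.787% were called higher and 4.24% lower, and 4431 of 15125 had an unadjusted p below 0.05 in edgeR. Markers of striatal projection neurons were at -0.99, -0.39 and 0.06 in JA, -0.16, -0.37 and -0.50 in UA, -3.10, -0.16 and -1.15 in JU, and -0.19, -2.05 and -1.63 in vehicle brains. Choroid plexus markers summed to 27.7 CPM in vehicle replicate 1, against 298 to 1257 CPM in the other libraries. In vehicle vs sham all 10 ependymal markers were positive (median 1.07). Those of oligodendrocytes, homeostatic astrocytes and choroid plexus had medians of -0.08, 0.15 and 0.08. Vehicle replicate 2 had the lowest value of the vehicle libraries in both measures. Its pan-neuronal value was -0.69, against -0.25 and -0.22 in the others, and its 96-gene value was -0.28, against -0.25 and -0.21. The part of cell composition in these results was not tested.

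**Figure D5:**
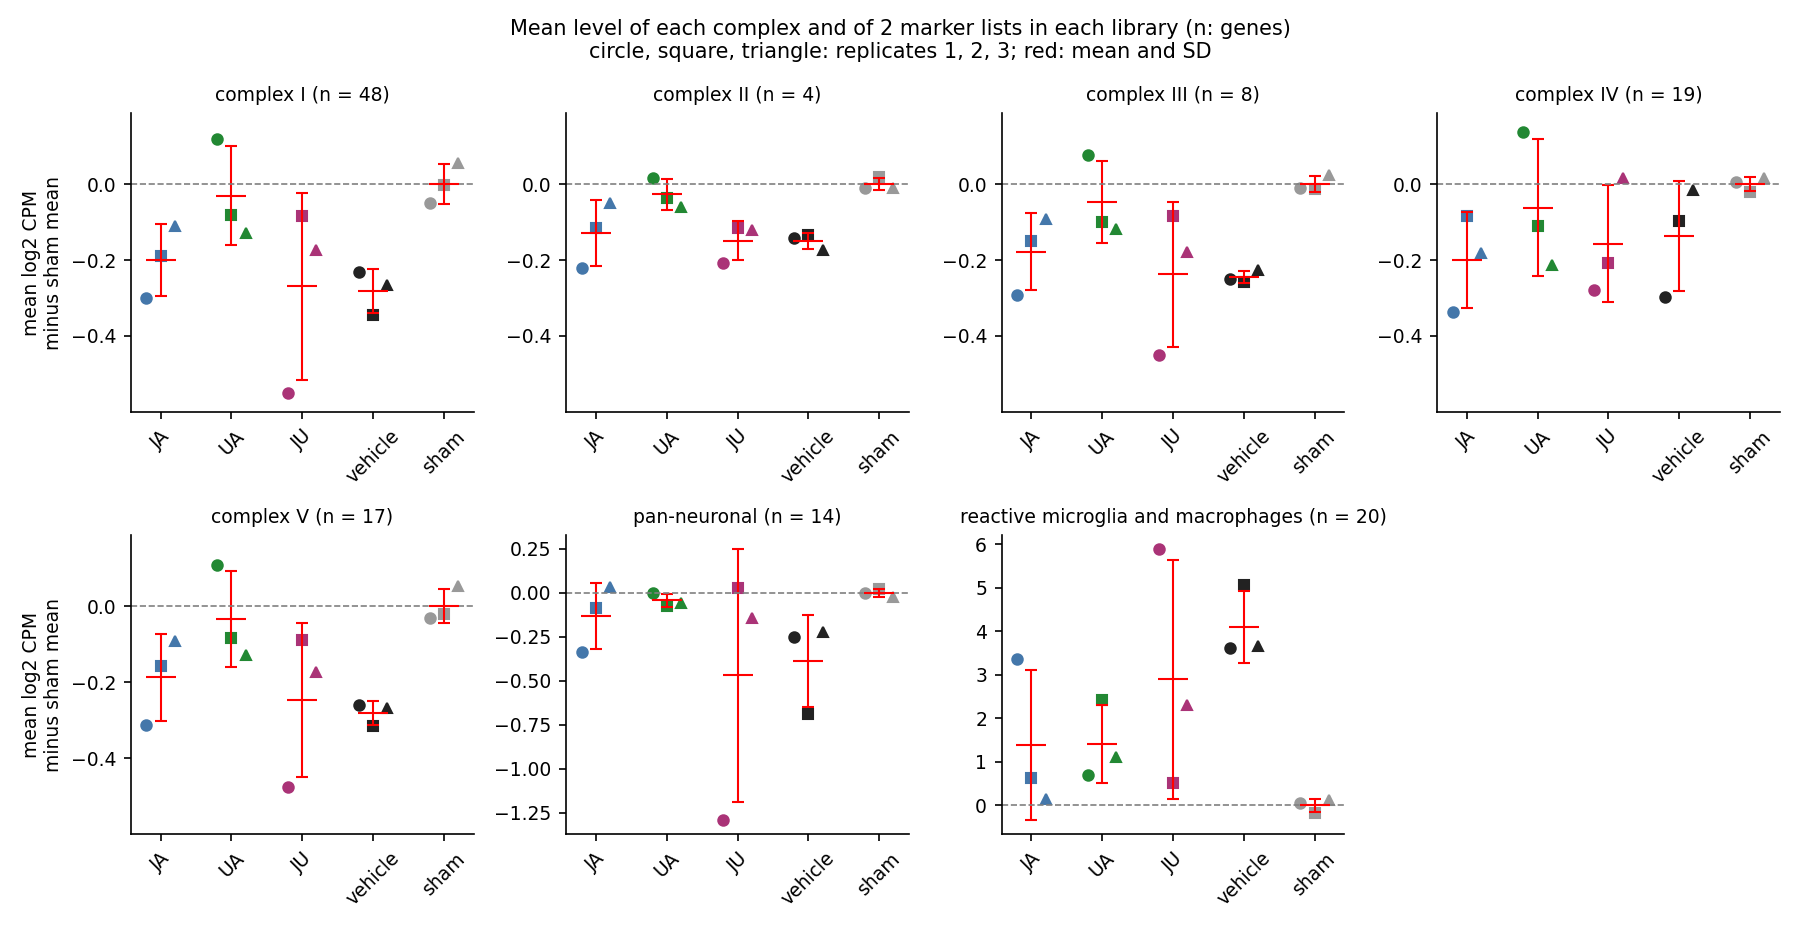
Mean log2 CPM minus the sham mean for the genes of complexes I to V and, on their own scales, for 14 pan-neuronal markers and 20 markers of reactive microglia and macrophages, in each library with the group mean and SD in red. JU replicate 1 is the lowest library for complexes I, III and V and the pan-neuronal markers and the highest for the microglial markers.

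Other genes of mitochondrial energy metabolism, listed apart from the symbol rule, stood as follows in vehicle vs sham. Of 37 tested assembly factors of complexes I to V outside the pattern, 4 were lower and 0 higher (median -0.15), beside 4.24% of all genes called lower: Tmem70 and Atpaf1, which help to assemble the ATP synthase, at -0.59 ± 0.12 and -0.72 ± 0.16, Tmem126b of complex I assembly at -0.68 ± 0.16, and Coa5 of complex IV assembly, named after its value was seen, at -0.32 ± 0.07. Of 23 genes for mitochondrial transport of phosphate, nucleotides and proteins, 3 were lower (median -0.24), beside the same 4.24%: the import receptors Tomm22 and Tomm70a and the outer membrane channel Vdac3. Of 19 genes of pyruvate dehydrogenase and the citrate cycle, Dld and Pdha1, both of the pyruvate dehydrogenase complex, were lower (median -0.19), again beside 4.24%. None of 14 genes for mobile electron carriers passed (median -0.08), with Cycs, cytochrome c itself, at -0.49 ± 0.17 (adjusted p = 0.0953). None of 18 regulators of mitochondrial gene expression passed (median -0.07), and 6 values were positive and 12 negative. Tfam, which packages mitochondrial DNA, was at -0.27 ± 0.08 (edgeR, adjusted p = 0.0619). Ppargc1a, a coactivator of mitochondrial genes, was at -0.58 ± 0.20 (adjusted p = 0.0953). Pprc1 went the other way, at 0.52 ± 0.17 (adjusted p = 0.0861, edgeR). In UA brains Tmem70, Coa5, Atpaf1, Vdac3, Tomm22 and Dld were higher than in vehicle brains, by 0.57, 0.33, 0.66, 0.44, 0.32 and 0.43 on the log2 scale, 6 genes of these lists, beside 3.12% of all genes called higher. No gene of these lists passed in JA or JU against vehicle.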

How the data were processed

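Brain mRNA was sequenced in 15 libraries, 3 for each of the groups JA, UA, JU, vehicle and sham, with RNA from the mirVana kit and a stranded TruSeq mRNA kit, per the labels' protocols. Trimmomatic, HISAT2, Cufflinks and DESeq, and the build GRCm38 or mm10, appear in the submitters' processing notes with neither version nor role. How reads were counted, with which strand setting and annotation, is not given there. The authors deposited 1 table with raw read counts per gene and with FPKM per gene, per the file headers, and 1 count column that matched no sample was not used.

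Counts were tested with edgeR 4.0.16 (R 4.3.3; TMM, filterByExpr, robust quasi-likelihood, 1 mean per group over all 15 libraries, two-sided), with Benjamini-Hochberg adjustment over the 15125 genes that passed the filter. The fit had 10 residual degrees of freedom and a biological coefficient of variation of 27.1%. DESeq2 1.42.0, limma 3.58.1 (voom, and log2(FPKM + 1)), other scalings, a replicate block, single libraries left out, and a correction for transcript GC content (spline with 5 degrees of freedom) were alternatives, and the scripts were tested on simulated data. GC content and positions came from GENCODE vM21 (GRCm38), in which 18524 genes (97.9%) matched by gene ID or symbol. Replicates differed by more than sampling noise in every pair. Same-numbered libraries of JU and JA deviated together (r = 0.70, 0.39 and 0.42), but JU replicate 2 did so more with JA replicate 3 (r = 0.59). Whether the numbers pair any groups is therefore not known. The block changed no call in JU vs JA, where 0 genes had passed without it.

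The genes and lists were chosen with earlier results of these data known. Genes were named by rule: up to 12 called members per comparison and direction by p, the 2 with the smallest p and the most abundant of each complex, the Sdh genes, isoforms with a common counterpart, the outermost fold changes, and up to 3 of each pathway list. Others (among them Ndufc1, Atp5md, Ndufaf8, Ndufc2, Ndufb7 and the c ring genes as a set) were named after their values were seen.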

Additional observations from a re-analysis of the deposited data

How the results depend on the processing

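In vehicle vs sham the 13 called genes became 26 with DESeq2, 34 with only the compared groups fitted, 42 without JA replicate 1 and JU replicate 1 (chosen after seeing the data), and 0 with a correction for GC content, for GC content with the replicate block, or for GC content and length. They became 54 with the GC correction and JU replicate 1 not in the fit. Calls over all genes moved as well, from 4.24% lower in the main fit to 13.1% in that fit and 16.9% without JU replicate 1. A larger count is therefore not a result about these genes alone. Counts from other settings, here and above, have no such share beside them unless it is given. The median of -0.21 was -0.17 with upper-quartile scaling, -0.29 (-0.285) with the GC correction, -0.29 (-0.2871) with the block added, -0.26 (-0.2569) with length added, -0.29 (-0.2854) without JU replicate 1, and -0.16 (-0.1593), -0.17 (-0.1666) and -0.16 (-0.1591) by limma on log2(FPKM + 1), log2(FPKM + 0.1) and without a filter. Leaving out 1 library gave 0 to 40 called genes.

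In UA vs vehicle the 9 called genes became 22 with DESeq2, 5 with upper-quartile scaling, 21 with only the compared groups, 40 with the GC correction and JU replicate 1 not in the fit, 0 under the other 3 GC corrections, 5 by unfiltered limma on FPKM and 37 without JA replicate 1 and JU replicate 1. Leaving out 1 library gave 0 to 33. In JA vs vehicle the 2 became 9 with DESeq2, 1 with DESeq2 size factors or no filter, 21 without JA replicate 1 and JU replicate 1, and 0 with upper-quartile scaling, only the compared groups, the 3 GC corrections with all libraries (median 0.17 (0.1682) with length) or limma on FPKM. Leaving out 1 library gave 0 to 14. In JU vs UA the 2 became 13 with DESeq2, 5, 5 and 4 by limma on FPKM, and 0 with DESeq2 size factors, no filter, only the compared groups, any GC correction, or without JA replicate 1 and JU replicate 1. Leaving out 1 library gave 0 to 23. In JU vs JA DESeq2 called 5. The cause of these shifts was not tested.

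With the replicate block, 7 genes were called in vehicle vs sham, 4 in UA vs vehicle, 0 in JA vs vehicle and 0 in JU vs UA. With only the compared groups and the block (chosen after seeing the data), the counts were 25, 23, 0 and 0. Whether same-numbered libraries are paired in these comparisons is not known. Their deviations had r = -0.06, 0.02 and -0.03 for vehicle and sham, and -0.32, -0.31 and 0.33 for JA and vehicle. For UA and vehicle r was 0.03, 0.25 and 0.06, and for JU and UA -0.25, -0.37 and 0.01. For single genes, 732 values kept direction and side of the threshold, 284 lost significance, 27 gained it and 26 changed sign, all in 2 genes of vehicle vs sham, with 0 of these values called. Cox4i1 (0.00) was at -0.001753 with DESeq2, -0.001747 with its size factors, -0.01452 without a filter, -0.00215 with only the compared groups and -9.408e-05 with the block added, -0.1685, -0.1673, -0.1406 and -0.1681 with GC correction alone, with block, with length and without JU replicate 1, and -0.04866 to 0.05126 on leaving out 1 library. Sdhc (0.04) was at -0.05256, -0.05252, -0.07891 and -0.05081 under the same 4 GC corrections. With 3 libraries per group, isoforms near the floor of 3 counts, such as Cox7b2 and Cox8b, were measured with wide errors.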
